A study of Mus musculus with 12 samples.

Results

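The levels of 10 genes of pulmonary surfactant and of alveolar type 2 cells were examined in tumour cells sorted from mouse lungs. The members were chosen by gene name among the 54146 genes of the table, and all 10 were found there. They are the surfactant protein genes Sftpc, Sftpb, Sftpa1 and Sftpd, the lamellar body genes Abca3, Lamp3 and Napsa, the phosphate transporter gene Slc34a2, the phospholipid enzyme gene Lpcat1 and the transcription factor gene Etv5.

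RNA was sequenced from D2A1 cells, a mouse mammary carcinoma line, that had been injected into the tail vein and recovered from the lungs, 12 days later by the study's methods and 14 days later by its results text. The cells carried a doxycycline-inducible histone H2B fused to GFP and the membrane dye CellVue Claret, which is diluted at each division. GFP+ cells that had kept the dye were sorted as dormant and GFP+ cells that had lost it as growing, in aliquots of 50 cells. Hosts were female mice of 6 to 8 weeks, either WT by the labels (Tgfbr2 floxed controls in the study's terms) or Tgfbr2 KO, that is, Tgfbr2 floxed with Cre driven by the Lyz2 promoter (LysM-Cre). State and host together made 4 groups of 3 libraries (growing WT, growing KO, dormant WT and dormant KO), and the study counts 3 mice per group. Tgfbr2 was deleted in the hosts and not in the tumour cells, which were the same line in all 12 libraries. As background, the Lyz2 promoter is active in myeloid cells and is also known to be active in alveolar type 2 cells.

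Alveolar type 2 cells are the lung epithelial cells that make surfactant, a film of phospholipid and protein that lowers surface tension in the alveolus. Lipid and the hydrophobic surfactant proteins are packed together in lamellar bodies, which are secreted and also taken up again, while the collectins Sftpa1 and Sftpd act in innate defence. Sftpc is restricted to these cells in the adult lung and is widely used as their marker.

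Expression values are TPM, a measure of transcript abundance per length on a common total for each library, so that levels can be compared between genes. By their library names the labelled WT samples formed batch 1 and the labelled KO samples batch 2. Columns named for WT libraries of batch 2 match no labelled sample and were not used here. Host and batch cannot be told apart among the 12 libraries for this reason, whereas comparisons of state within a host lie within 1 batch. The dormant KO libraries stood apart from the others in more than the members. Spp1, an abundant secreted phosphoprotein gene, had a mean of 1390 TPM in dormant KO, while the means of growing KO (31139), growing WT (33171) and dormant WT (35301) lay close to each other. Dormant KO libraries had 14770 to 15315 genes above 0, dormant WT libraries 11325 to 13242, growing WT libraries 14352 to 14475 and growing KO libraries 13406 to 14063. Within groups, libraries correlated across genes with r of 0.666 to 0.715 in dormant WT and 0.866 to 0.882 in dormant KO, against 0.949 to 0.952 in growing WT and 0.914 to 0.922 in growing KO. In bulk samples such as these, fewer cells of a type and less RNA per cell cannot be told apart.

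The members lie on 7 chromosomes of GRCm38 (GENCODE M21 annotation). Sftpc is at chr14:70520949-70524081 on the minus strand, and the collectin genes Sftpa1 (chr14:41131782-41136452, plus strand) and Sftpd (chr14:41172214-41185149, minus strand) are neighbours on the same chromosome. Sftpb is at chr6:72304610-72314371 (plus strand), Napsa at chr7:44572380-44586862 (plus strand), Slc34a2 at chr5:53038081-53071664 (plus strand) and Lpcat1 at chr13:73467197-73516422 (plus strand). Lamp3 (chr16:19653378-19706375) and Etv5 (chr16:22381309-22439719) are both on the minus strand, and Abca3 is at chr17:24351950-24410201 (plus strand). Abca3, Napsa and Slc34a2 overlap annotated transcripts on the opposite strand (Gm25618 and D330041H03Rik, Gm15396, and Gm17182), and their values are uncertain to that extent because the use of strand in counting was not stated.

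The RefSeq promoter table (GRCm38.p6) held 7 of the 10 members, and Sftpc, Sftpd and Napsa had no entry. Because several members moved together between groups, 3 promoters are shown, each as the 250 bases before the start of Sftpb (chr6:72304360-72304609, plus strand), Sftpa1 (chr14:41131538-41131787, plus strand) and Lamp3 (chr16:19706366-19706615, minus strand). They were chosen because their genes differed between groups and because they held matches to the motifs searched. Capitals mark matches to CTCAAG (NKX2-1), TGTTTAC (forkhead factors) or AGGAAG (ETS factors) on either strand.
Sftpb: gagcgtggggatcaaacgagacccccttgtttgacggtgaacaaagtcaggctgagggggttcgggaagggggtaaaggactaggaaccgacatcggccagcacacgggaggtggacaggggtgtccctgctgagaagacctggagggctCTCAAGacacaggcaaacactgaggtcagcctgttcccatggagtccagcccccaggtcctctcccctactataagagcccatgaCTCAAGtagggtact
Sftpa1: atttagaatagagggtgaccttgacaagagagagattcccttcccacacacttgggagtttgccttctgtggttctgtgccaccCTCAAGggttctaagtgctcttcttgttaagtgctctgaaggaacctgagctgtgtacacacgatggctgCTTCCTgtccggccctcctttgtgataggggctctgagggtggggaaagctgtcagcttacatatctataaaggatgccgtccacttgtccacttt
Lamp3: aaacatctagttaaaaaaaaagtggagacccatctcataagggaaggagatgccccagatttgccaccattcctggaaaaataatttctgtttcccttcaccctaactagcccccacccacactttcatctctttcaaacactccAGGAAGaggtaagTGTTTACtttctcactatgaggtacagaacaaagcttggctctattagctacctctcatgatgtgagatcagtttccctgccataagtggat

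CTCAAG, letters bound by NKX2-1, the homeodomain factor of lung epithelium, stood 100 and 15 bases before the start of Sftpb and 166 bases before that of Sftpa1, on the plus strand of each gene. It was found on either strand in 15.9% of all 32851 promoters of the same 300 bases, 250 before and 50 after the start. TGTTTAC stood 92 bases before the start of Lamp3 and, on the minus strand, 183 bases before one of the 2 starts of Etv5, and was found in 3.65% of all promoters. AGGAAG stood in promoters of Sftpa1 (minus strand, 96 bases before the start), Lamp3 (105 bases), Lpcat1 (210 bases) and Etv5 (just after the start), and in 35.4% of all promoters. The longer NKX2 motif CACTTGA was in 3.06% of all promoters and in none of the 8 member promoters. CTCAAG and CACTTGA can overlap by shared letters, and the other motifs were searched independently. These matches describe letters only, since binding was not measured here.

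Between the dormant groups 7 of the 10 members were higher in KO hosts. These were all 4 surfactant protein genes, Lamp3, Napsa and Slc34a2. The test was limma on log2(TPM + 1), two-sided, and a gene was called at a Benjamini-Hochberg adjusted p of at most 0.05 with a difference of at least 1. Of all 13002 genes tested, 12.9% were called higher and 9.39% lower in this comparison. The median difference was 4.66 over the members and 0.17 over all genes tested. Abca3, Lpcat1 and Etv5 were not called, and no member was called lower. Sftpb, Lamp3 and Slc34a2 reached the minimum for testing (1 TPM in 3 libraries) only through dormant KO, where they are high, so the member count is a description and no support.

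**Figure D1:**
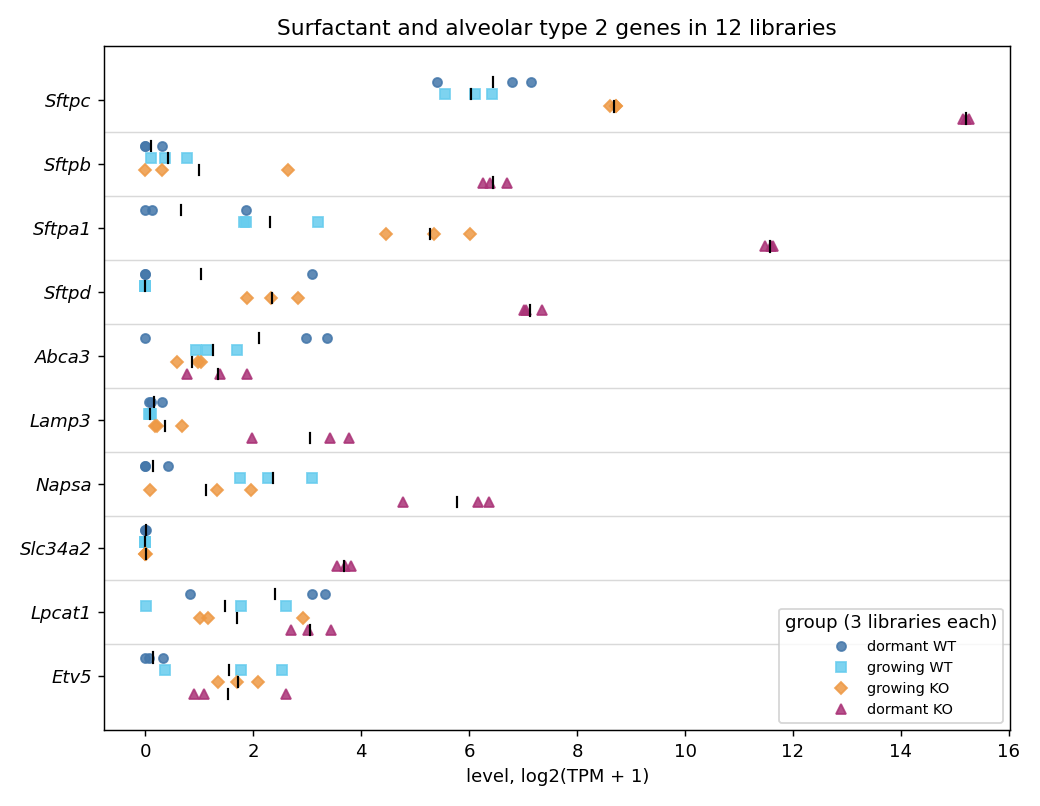
Level of each of the 10 members as log2(TPM + 1) in each of the 12 libraries, with 1 point per library, a colour and marker per group and a black tick at the mean of the 3 libraries. The dormant KO points lie to the right of all other points for Sftpc, Sftpb, Sftpa1, Sftpd, Lamp3, Napsa and Slc34a2, whereas the groups overlap for Abca3 and Lpcat1, and for Etv5 only the dormant WT points lie apart, at the low end.

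Sftpc, the small hydrophobic protein that spreads surfactant lipid, was the most abundant transcript of every dormant KO library, at 39284, 36571 and 37725 TPM. The growing KO libraries stood at 387, 419 and 423 TPM. The WT libraries stood at 41.2, 141 and 110 TPM when dormant and at 46.0, 84.6 and 68.1 TPM when growing. All dormant KO libraries lay above all growing KO libraries, which lay in turn above all WT libraries, and the dormant and growing WT libraries overlapped. Among all genes Sftpc ranked between 455 and 501 in growing KO, between 1623 and 2355 in growing WT and between 1069 and 2776 in dormant WT. The difference of dormant KO from dormant WT was 8.76 ± 0.37 on the log2(TPM + 1) scale (SE, n = 3 and 3, adjusted p = 5.32e-08). From growing KO, within library batch 2, it was 6.53 ± 0.37 (adjusted p = 8.03e-07). These comparisons share the dormant KO libraries.

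Sftpb, the other hydrophobic surfactant protein, which is required for lamellar bodies and the surface film, stood at 75.0, 103 and 82.9 TPM in dormant KO. It was listed at 0.24, 0 and 0 TPM in dormant WT, at 0.07, 0.28 and 0.71 in growing WT and at 0.24, 0 and 5.24 in growing KO. Only growing KO replicate 3 exceeded 1 TPM outside dormant KO, and no library of another group reached the dormant KO range. The difference was 6.34 ± 0.66 from dormant WT (adjusted p = 4.59e-05) and 5.46 ± 0.66 from growing KO (adjusted p = 0.000176).

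Sftpa1, the collectin that binds surfactant lipid and microbes, had 2876, 3170 and 3091 TPM in dormant KO and ranked between 35 and 41 among all genes there. It had 63.5, 39.9 and 21 TPM in growing KO. In growing WT it had 2.53, 2.66 and 8.23 TPM, whereas dormant WT had 0.09, 0 and 2.64. The dormant KO libraries lay highest and the growing KO libraries next, with no overlap between KO and WT libraries. The difference of dormant KO was 10.91 ± 0.61 from dormant WT (adjusted p = 4.46e-07), the largest among the members on this scale, and 6.30 ± 0.61 from growing KO (adjusted p = 4.01e-05).

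Sftpd, the collectin that is found mainly apart from the lipid film, had 128, 131 and 162 TPM in dormant KO. It had 6.05, 2.70 and 4.03 TPM in growing KO and was listed at 0 in all growing WT libraries. In dormant WT it was listed at 0 in replicates 1 and 2 and at 7.52 TPM in replicate 3. Dormant WT replicate 3 therefore lay above the growing KO libraries and below the dormant KO libraries. The difference of dormant KO was 6.10 ± 0.77 from dormant WT (adjusted p = 0.000153) and 4.79 ± 0.77 from growing KO (adjusted p = 0.00105).

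The lamellar body genes did not move together. Abca3, the transporter that carries phospholipid into the lamellar body, had 1.62, 0.70 and 2.69 TPM in dormant KO and 6.85, 0 and 9.25 in dormant WT. It had 0.91, 2.23 and 1.2 TPM in growing WT, and the growing KO values were 0.49, 0.96 and 1.03, so that all groups overlapped. Its difference of -0.76 ± 0.77 between dormant KO and dormant WT was within the error (adjusted p = 0.527). Without dormant WT replicate 2, where it is listed at 0, Abca3 was called lower in dormant KO, at -1.82 (adjusted p = 0.0199).

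Lamp3, a membrane glycoprotein of the lamellar body, had 9.73, 2.95 and 12.6 TPM in dormant KO. It was below 1 TPM in the other 9 libraries, at 0.23, 0.08 and 0.04 in dormant WT, 0.05, 0.08 and 0.06 in growing WT, and the growing KO values were 0.13, 0.59 and 0.16. The dormant KO libraries thus lay above all others, replicate 2 by the least. The difference was 2.90 ± 0.45 from dormant WT (adjusted p = 0.000661) and 2.70 ± 0.45 from growing KO (adjusted p = 0.00142). With quantile normalization the first of these was 1.57 and was not called (adjusted p = 0.0708).

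Napsa, the aspartic protease that processes the Sftpb and Sftpc precursors, had 26.4, 81.6 and 71.0 TPM in dormant KO. It had 0.34, 0 and 0 TPM in dormant WT, 3.84, 7.46 and 2.36 in growing WT, and the growing KO values were 0.06, 1.51 and 2.87. The order below dormant KO differed from that of the surfactant proteins, since the growing WT libraries were next and overlapped with growing KO. The difference of dormant KO was 5.63 ± 0.66 from dormant WT (adjusted p = 9.92e-05) and 4.65 ± 0.66 from growing KO (adjusted p = 0.000493).

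Slc34a2, the sodium-phosphate cotransporter of the type 2 cell surface, had 10.7, 11.96 and 13.0 TPM in dormant KO. It was listed at 0 in all growing WT libraries and at no more than 0.01 TPM in any dormant WT or growing KO library. The dormant KO values were therefore apart from the 9 others. The difference was 3.68 ± 0.30 from dormant WT (adjusted p = 7.59e-06) and 3.68 ± 0.30 from growing KO (adjusted p = 1.45e-05), a scale on which a gene near 0 in the second group is understated.

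Lpcat1, the acyltransferase that makes the saturated phosphatidylcholine of surfactant, had 7.06, 9.80 and 5.46 TPM in dormant KO and 0.77, 7.48 and 8.98 in dormant WT. In growing WT it had 2.43, 5.08 and 0.01 TPM, and in growing KO 6.61, 1.22 and 1.01. The groups overlapped. The difference of dormant KO was 0.64 ± 0.87 from dormant WT (adjusted p = 0.658) and 1.35 ± 0.87 from growing KO (adjusted p = 0.327).

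Etv5, an ETS transcription factor that maintains type 2 cells, had 1.13, 0.87 and 5.09 TPM in dormant KO and 0, 0.05 and 0.25 in dormant WT, which did not overlap. It had 2.43, 0.28 and 4.77 TPM in growing WT, and the growing KO values were 1.54, 2.24 and 3.26, within or near the dormant KO range. The difference of dormant KO from dormant WT was 1.40 ± 0.62 and was not called (adjusted p = 0.128), although it was called with a pseudocount of 0.1 (3.40, adjusted p = 0.0434). From growing KO it was -0.18 ± 0.62 (adjusted p = 0.883), and this sign turned with either other scaling. With Etv5 included, 8 members had dormant KO libraries all above dormant WT, a pattern found in 18.6% of all genes tested.

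**Figure D2:**
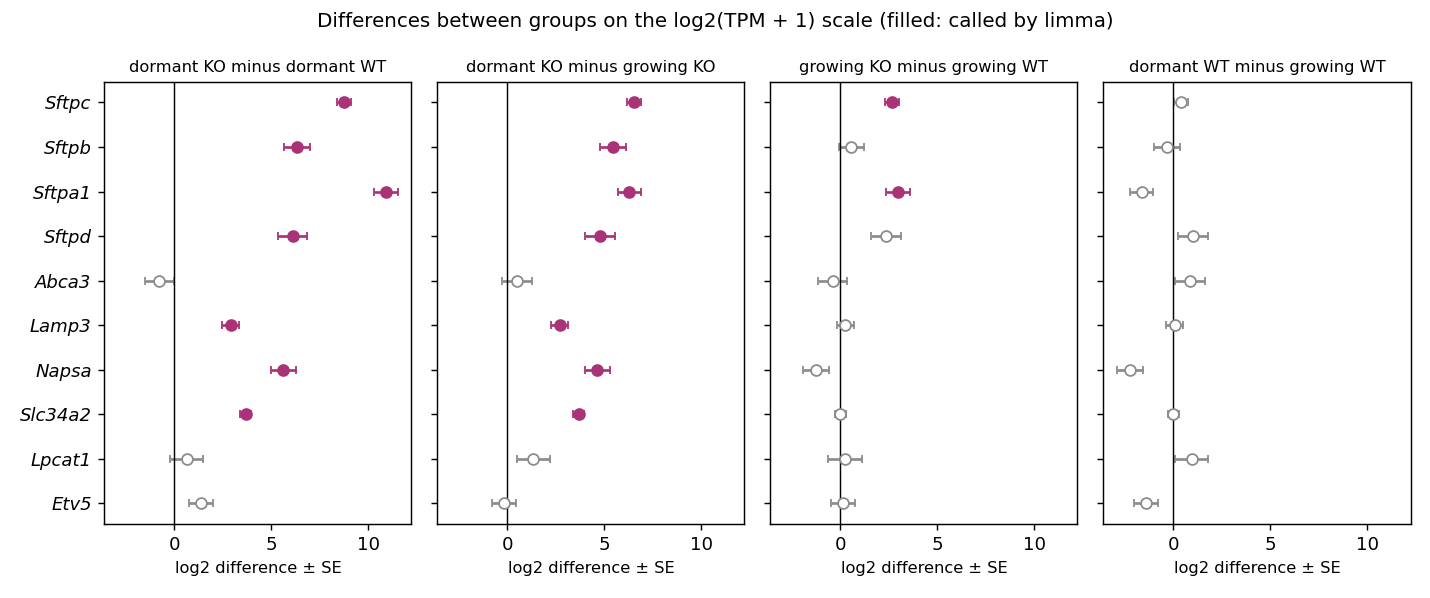
Difference of each member between groups on the log2(TPM + 1) scale with its SE (bars) from limma, 1 panel per comparison, where filled points were called and open points were not. The 7 called members lie to the right of 0 in both dormant KO panels, Sftpc (2.65) and Sftpa1 (2.98) are the filled points between the growing groups, and no point is filled between the WT groups.

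The comparison of dormant with growing cells within KO hosts lies within library batch 2. Here 7 of the 10 members were called higher in dormant KO and none lower. These were Sftpc, Sftpb, Sftpa1, Sftpd, Lamp3, Napsa and Slc34a2, and the dormant KO libraries are shared with the comparison above. Here too Sftpb, Lamp3 and Slc34a2 were tested only through dormant KO, so the count is a description and no support. Of all genes tested, 8.31% were called higher, 9.48% lower, and 16.4% had dormant KO libraries all above growing KO. The median difference was 4.17 over the members and -0.32 over all genes. By group means Sftpc was 92.4 times higher in dormant KO than in growing KO (SD 5.58), Sftpa1 73.4 times (SD 37.9) and Sftpd 32.9 times (SD 13.7). Each SD of a ratio, here and below, was propagated from the SD of the 2 groups and is no spread of replicate ratios. With median-ratio scaling the ratio was 140 for Sftpc and 49.5 for Sftpd. The ratio for Abca3 was 2.02 (SD 1.40), for Lpcat1 2.52 (SD 2.82) and for Etv5 1.01 (SD 1.07).

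Between the growing groups, Sftpc and Sftpa1 were called higher in KO hosts, that is, 2 of the 10 members against 0.715% of all genes tested, and none lower, against 0.261%. Sftpc differed by 2.65 ± 0.37 (adjusted p = 0.00502), 6.19-fold by group means (SD 1.83), and was called under every one of the 21 alternative settings. Sftpa1 differed by 2.98 ± 0.61 (adjusted p = 0.0418), 9.27-fold by group means (SD 8.26). Over 7 alternatives this ratio ran from 6.81 to 15.98. The Sftpa1 call was less stable. It was lost when the growing groups were fitted alone (adjusted p = 0.0537), with no filter (0.0797) and with a pseudocount of 0.1 (0.311). It was also lost without any one of the 3 dormant KO libraries (adjusted p = 0.0764 to 0.0848) and without any one of the 3 growing WT (0.05, just over the limit, to 0.201) or the 3 growing KO libraries (0.0545 to 0.202). Host and library batch cannot be told apart in this comparison.

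Sftpd had all growing KO libraries above the growing WT libraries, which are listed at 0, yet its difference of 2.35 ± 0.77 was not called (adjusted p = 0.323). It was called when the growing groups were fitted alone (adjusted p = 0.019), with array weights (adjusted p = 0.00379) and without dormant WT replicate 3 (adjusted p = 0.028). Lamp3 also did not overlap, at 0.26 ± 0.45 (adjusted p = 1). With Sftpc and Sftpa1 this made 4 members with growing KO libraries all above growing WT, against 13.3% of all genes tested. Of these, Lamp3 was below 1 TPM in every library of both growing groups and was tested only through dormant KO. Napsa had a lower mean in growing KO and was not called, at -1.25 ± 0.66 (adjusted p = 0.814), with overlapping libraries. Sftpb (0.57 ± 0.66), Abca3 (-0.40 ± 0.77), Lpcat1 (0.23 ± 0.87), Etv5 (0.16 ± 0.62) and Slc34a2 (0.00 ± 0.30) differed by less than their SE.

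Within WT hosts no member was called between dormant and growing cells, whereas 1.85% of all genes tested were called higher and 5.67% lower in dormant WT. At an unadjusted p under 0.05, limma gave 3 members, all lower in dormant WT, and 23.9% of all genes tested in either direction. These were Napsa at -2.23 ± 0.66 (adjusted p = 0.0613), Sftpa1 at -1.64 ± 0.61 (adjusted p = 0.123) and Etv5 at -1.42 ± 0.62 (adjusted p = 0.188). Napsa and Etv5 had dormant WT libraries all below growing WT, which held for 19.4% of all genes tested. Napsa was called lower when the WT groups were fitted alone (adjusted p = 0.0433), with a pseudocount of 0.1 (-4.67, adjusted p = 0.0287) and with a minimum of 5 TPM (adjusted p = 0.0494). Without dormant WT replicate 3 Sftpa1 was called lower, at -2.24 (adjusted p = 0.0232), and without dormant WT replicate 2 Abca3 was called higher, at 1.91 (adjusted p = 0.0353). Sftpc differed by 0.42 ± 0.37 (adjusted p = 0.529).

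The dormant minus growing difference was larger in KO than in WT hosts for 7 members, by a test of the interaction in which 6.18% of all genes were called higher and 3.91% lower. Since Sftpb, Lamp3 and Slc34a2 were tested only through dormant KO, this count is a description as well. The difference of differences was 7.93 ± 0.86 for Sftpa1 (adjusted p = 0.000256), 6.88 ± 0.93 for Napsa (adjusted p = 0.00107) and 6.11 ± 0.52 for Sftpc (adjusted p = 4.61e-05). It was 5.77 ± 0.94 for Sftpb (adjusted p = 0.00302) and 3.67 ± 0.43 for Slc34a2 (adjusted p = 0.000399). Sftpd at 3.76 ± 1.08 (adjusted p = 0.0487) and Lamp3 at 2.64 ± 0.64 (adjusted p = 0.0222) were nearer the threshold. The Sftpd call was lost without any one library other than dormant WT replicate 3, with adjusted p of 0.0621 to 0.114, and the Lamp3 call without any one growing WT library or without growing KO replicate 1 or 3 (0.0529 to 0.0574). The Sftpd call was also lost with a pseudocount of 0.1 (2.99, adjusted p = 0.433) and with no filter (0.0898), and the Lamp3 call with quantile normalization (1.3, adjusted p = 0.382), no filter (0.0666) and array weights (0.0526). Without any one dormant KO library Lamp3 and Slc34a2 were no longer tested. Abca3, Lpcat1 and Etv5 gave -0.37 ± 1.08, 0.41 ± 1.23 and 1.25 ± 0.87 (adjusted p of 0.897, 0.899 and 0.461).

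Summed over the 10 members, the share of all TPM was 4.12% ± 0.117 (SD, n = 3) in dormant KO and 0.0465% ± 0.000351 in growing KO. It was 0.0112% ± 0.00544 in dormant WT and 0.00822% ± 0.00224 in growing WT. Sftpc made up most of this sum in every group, 91.8% ± 0.706 in dormant KO, 88.1% ± 4.44 in growing KO, 85.7% ± 8.18 in dormant WT and 80.4% ± 1.81 in growing WT.

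The members did not keep fixed proportions to Sftpc across groups. Per 1000 TPM of Sftpc, Sftpa1 stood at 73.2, 86.7 and 81.9 in dormant KO, at 164, 95.2 and 49.6 in growing KO and at 55, 31.4 and 121 in growing WT, ranges that overlap. In dormant WT it was 2.18, 0 and 24.1, below the others. Napsa stood at 0.673 to 2.23 per 1000 in dormant KO and 0.155 to 6.78 in growing KO, but at 34.6 to 88.2 in growing WT, which overlapped with neither KO range. In dormant WT it was 8.25, 0 and 0, a range that overlapped with both KO ranges and lay below growing WT. Sftpd stood at 3.26 to 4.28 per 1000 in dormant KO and at 6.44 to 15.6 in growing KO, whereas dormant WT had 0, 0 and 68.7 and growing WT was listed at 0. Several of these ratios rest on members at a few TPM, and no test was made of them.

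The label of the members as type 2 genes was set against 20 other markers of type 2 cells, of which 18 were tested. Dormant KO exceeded dormant WT in 14 of these and growing KO in 12, and no marker was called lower. Of the 18, 11 reached the minimum for testing only through dormant KO, so the counts are a description and no support. Without any one dormant KO library they were 7 to 8 and 5 to 6. The same entry through dormant KO alone holds for 7 of the 14 tested alveolar type 1 markers, 5 of 9 epithelial, 5 of 12 endothelial, 5 of 13 regulator, 3 of 12 alveolar macrophage, 2 of 14 surfactant handling, 2 of 7 mammary tumour, 1 of 11 club and ciliated and 1 of 12 fibroblast genes described next. The median difference was 3.84 and 3.49, against 0.17 and -0.32 over all genes. Their summed level was 1215 to 1407 TPM in dormant KO, 81.0 to 124 in dormant WT, 49.98 to 75.3 in growing WT and 134 to 174 in growing KO.

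Among these markers Chil1, a chitinase-like protein, stood at 320, 386 and 292 TPM in dormant KO and was listed at 0 in every dormant WT library. Lyz1, a lysozyme, had 83.7, 134 and 173 TPM in dormant KO and differed from dormant WT by 5.08 ± 1.03 (adjusted p = 0.00367). Cbr2, a carbonyl reductase of lung, was called in all 3 comparisons that involve KO libraries, at 3.65 ± 0.29 between the dormant groups (adjusted p = 6.6e-06) and 2.06 ± 0.29 between the growing groups (adjusted p = 0.00538). Il33, an alarmin cytokine, was not called, at -0.76 ± 0.49 (adjusted p = 0.305), and Rasgrf1 was at 0 in all 12 libraries.

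The enzymes of surfactant lipid synthesis gave no common direction. Of 18 genes, 16 were tested, and between the dormant groups 2 were called higher and 3 lower in KO hosts, with a median of -0.06. The 2 became 5 without dormant WT replicate 1, and 1 without dormant WT replicate 2 or 3 or dormant KO replicate 2 or 3. Fabp5, a fatty acid binding protein, rose by 1.34 ± 0.32 (adjusted p = 0.00888) and Cept1, which makes phosphatidylcholine, by 3.20 ± 0.94 (adjusted p = 0.0275). Chka, a choline kinase, fell by 1.90 (SE 0.51, adjusted p = 0.0184), and Elovl1, a fatty acid elongase, was not called (difference 2.67, adjusted p = 0.128). Against growing KO, 0 were called higher and 2 lower.

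Genes of surfactant handling and the lamellar body were also mixed, with 3 called higher and 2 lower of 14 between the dormant groups (median 0.43) and 2 each way against growing KO. The 3 became 5 without dormant WT replicate 1 and 1 without dormant KO replicate 3, and the 2 higher against growing KO became 0 or 1 without any one dormant KO library or without growing KO replicate 2 or 3. Ctsh, a protease that processes Sftpb and Sftpc, rose by 5.06 ± 1.12 (adjusted p = 0.00634), from 0.23, 17.4 and 0 TPM in dormant WT to 69.1, 141 and 83.0 in dormant KO. Ctsb, a lysosomal protease, fell by 2.37 (SE 0.29, adjusted p = 0.000135) and Anxa7, a membrane fusion protein, by 1.97 (SE 0.27, adjusted p = 0.000321). Prdx6, a peroxiredoxin with phospholipase activity, differed by 0.99 ± 0.17 (adjusted p = 0.00135), just under the size required.

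Of 19 regulators of alveolar epithelium, 13 were tested, and 5 were called higher and 3 lower between the dormant groups. The 5 called higher, Nkx2-1, Gata6, Cebpa, Fgfr2 and Fgfr3, are the same 5 that reached the minimum for testing only through dormant KO, so their calls are a description, and of the 8 others none was called higher. The 5 became 2 without any one dormant KO library and 0 with a minimum of 5 TPM. Nkx2-1, whose motif was searched above, had 1.82, 5.05 and 10.8 TPM in dormant KO, and was listed at 0 in all WT libraries and in growing KO replicates 1 and 2, with 1.2 TPM in replicate 3. Its difference from dormant WT was 2.55 ± 0.50 (adjusted p = 0.003). Id2, an inhibitor of helix-loop-helix factors, fell by 1.26 (SE 0.31, adjusted p = 0.0115). Spry2, a feedback inhibitor of receptor tyrosine kinases, was lower in KO hosts in both states, by -1.60 ± 0.22 when dormant (adjusted p = 0.000304) and -1.60 ± 0.22 when growing (adjusted p = 0.00502). Dusp6, which dephosphorylates ERK, and Cebpd were not called between the dormant groups, at -1.29 ± 0.56 and 1.07 ± 0.84 (adjusted p of 0.124 and 0.414).

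Markers of other lung cell types were also called higher in dormant KO, though not every list followed the members in each comparison. Of 14 tested markers of alveolar type 1 cells (15 in the list), 10 were called higher between the dormant groups and 8 in dormant over growing KO, or 5 without dormant KO replicate 2 or 3. Their summed level was 1196 to 1343 TPM in dormant KO, 65.9 to 105 in dormant WT, 49.9 to 77.3 in growing WT and 87.0 to 94.9 in growing KO. Ager, the receptor that marks type 1 cells, had 391, 633 and 447 TPM in dormant KO against 0.86, 0 and 0 in dormant WT. Hopx (7.24 ± 0.84, adjusted p = 8.79e-05) and Pdpn (6.75 ± 0.74, adjusted p = 6.18e-05) were called too, and Emp2 was not (2.15 ± 1.17, adjusted p = 0.218). Aqp5 was not called either, with a mean of 14.5 TPM in dormant KO and 33.1 in dormant WT (-0.10 ± 1.26, adjusted p = 0.978). Its dormant KO libraries lay below all growing KO libraries (-1.51 ± 1.26, adjusted p = 0.461).

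Of 11 tested club and ciliated cell genes (12 in the list), 8 were called higher in KO hosts when dormant and 3 when growing, and dormant over growing KO gave 3 higher and 1 lower, the 3 becoming 0 or 1 without any one dormant KO library or without growing KO replicate 1. Their summed level was 2143 to 2735 TPM in dormant KO, 1175 to 1252 in growing KO, 298 to 326 in growing WT and 8.59 to 312 in dormant WT. Scgb1a1, the secretoglobin of club cells, had 2176, 1752 and 1694 TPM in dormant KO, 920, 947 and 947 in growing KO, 280, 290 and 264 in growing WT, and dormant WT stood at 104, 7.57 and 208. KO libraries did not overlap with WT libraries in either state, and the difference was 5.03 ± 0.84 when dormant (adjusted p = 0.00109) and 1.75 ± 0.84 when growing (adjusted p = 0.723). Between dormant and growing KO, Scgb1a1 was not called (0.99 ± 0.84, adjusted p = 0.471). Bpifa1 was the gene called lower there (-5.15 ± 0.74, adjusted p = 0.000507). For the interaction, 0 genes of this list were called higher and 1 lower. Of the other abundant genes of this list, Aldh1a1, an aldehyde dehydrogenase (6.82 ± 1.07, adjusted p = 0.000714), and Scgb3a2, another secretoglobin (3.55 ± 1.08, adjusted p = 0.0334), were called between the dormant groups. Tppp3, a tubulin-associated gene of ciliated cells, was not (2.51 ± 1.38, adjusted p = 0.225), with 48.4, 0 and 39.1 TPM in dormant WT, which overlapped with 104, 36.9 and 91.4 in dormant KO. Foxj1, which defines ciliated cells, was at 0 in all 12 libraries. Between the dormant groups, other ciliated cell genes were among the 8 called in KO hosts, namely Dynlrb2 at 34.5, 85.02 and 89.7 TPM in dormant KO (adjusted p = 0.000849), Ccdc153 at 38.7, 25.6 and 27.4 TPM (adjusted p = 0.00106) and Tmem212 at 21.45, 20.5 and 9.68 TPM (adjusted p = 0.000877). In dormant WT Dynlrb2 and Ccdc153 were listed at 0 and Tmem212 at no more than 0.12 TPM, and Dynlrb2 was tested only through dormant KO.

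In the endothelial, fibroblast and alveolar macrophage lists, more genes were called higher than lower in dormant KO against dormant WT. Of 12 endothelial genes 8 were higher and 0 lower, with summed levels of 701 to 843 TPM in dormant KO, 48.6 to 117 in dormant WT, 12 to 17.3 in growing WT and 41.8 to 51.0 in growing KO. Of 12 fibroblast genes 7 were higher and 1 lower (Fn1, fibronectin, which fell by 3.75), with sums of 5781 to 6425 TPM in dormant KO, 779 to 1058 in dormant WT, 715 to 871 in growing WT and 905 to 1176 in growing KO. Of 12 tested alveolar macrophage genes (14 in the list) 6 were higher (3 without dormant KO replicate 1 or 2) and 0 lower, with sums of 1133 to 1309 TPM in dormant KO, 181 to 307 in dormant WT, 14.6 to 27.7 in growing WT and 38.7 to 60.8 in growing KO. In dormant over growing KO, within batch 2, 9 endothelial, 6 fibroblast and 11 alveolar macrophage genes were called higher (the 11 becoming 6 or 7 without any one dormant KO library) and 0, 1 and 0 lower. In dormant over growing WT, where no member was called, 0, 2 and 3 were higher and 0, 1 and 0 lower.

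The most abundant endothelial genes of the list, the secreted Egfl7, the tight junction gene Cldn5, the receptor gene Calcrl and the sialomucin gene Emcn, were all called higher between the dormant groups, Cldn5 by 7.21 ± 0.70 (adjusted p = 2.75e-05). Pecam1, which defines endothelium, had 55.4, 54.1 and 25.9 TPM in dormant KO and 0.15, 3.94 and 0 in dormant WT, a difference of 4.61 ± 0.69 (adjusted p = 0.000513). Of the abundant fibroblast genes, the matrix genes Mgp (3.20 ± 0.17, adjusted p = 3.91e-07) and Dcn (9.38 ± 0.60, adjusted p = 1.39e-06) and the methyltransferase gene Inmt (3.05 ± 0.60, adjusted p = 0.00294) were called higher. Mgp had 4541, 4231 and 3842 TPM in dormant KO, and Col3a1, a fibrillar collagen gene listed at 0 in every dormant WT library, had 139.6, 196 and 155 TPM and was called higher too (adjusted p = 2.07e-06). Col1a1, another collagen gene, stood at 4.65, 3.55 and 2.48 TPM in dormant KO and was not called (0.76 ± 0.62, adjusted p = 0.425). Other fibroblast genes that were not called had a lower mean in dormant KO. These were the proteoglycan gene Lum, at -2.02 ± 1.39 (adjusted p = 0.339), and the growth factor receptor genes Pdgfra, at -1.41 ± 0.74 (adjusted p = 0.205), and Pdgfrb, at -0.78 ± 0.83 (adjusted p = 0.554), all with overlapping libraries.

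Of the abundant alveolar macrophage genes, the fatty acid binding protein gene Fabp4 had 193, 193 and 281 TPM in dormant KO and was listed at 0 in every dormant WT library. Car4, a carbonic anhydrase gene, was called higher (6.65 ± 1.2, adjusted p = 0.00179). Fabp1 (1.95 ± 0.87, adjusted p = 0.133) and Ear2 (2.18 ± 0.95, adjusted p = 0.127) were not called between the dormant groups, and both were called higher in dormant than in growing KO, at 6.75 ± 0.87 and 5.52 ± 0.95 (adjusted p of 0.000261 and 0.00177). Marco and Siglecf, which define these cells, did not reach 1 TPM in 3 libraries and were not tested. Marco had 0.75, 0 and 2.41 TPM in dormant KO and 0.03, 19.7 and 0 in dormant WT, and Siglecf had 1.03, 0 and 0.01 TPM in dormant KO and 0, 4.33 and 0 in dormant WT. Dormant WT replicate 2 was the highest library for both, and both were at 0 in all growing libraries.

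Among general epithelial genes, 5 of 9 tested were called higher (3 without dormant KO replicate 1 or 3) and 1 lower between the dormant groups. Krt8 was the gene called lower (-1.62 ± 0.35, adjusted p = 0.00541), and Krt18 was not called (0.09 ± 0.25, adjusted p = 0.838). Against growing KO, 3 were called higher and 2 lower. The summed level of the list was 543 to 884 TPM in dormant KO and 320 to 561 in dormant WT, which overlapped. In growing cells it was 396 to 494 in WT and 674 to 813 in KO hosts. Krt19 had 267, 418 and 252 TPM in dormant KO (8.03 ± 0.75 over dormant WT, adjusted p = 2.03e-05). Krt7, another keratin, had 34.2, 61.5 and 29.6 TPM in dormant KO and was listed at 0 in all WT libraries (adjusted p = 2.28e-05). Epcam, at 3.42, 0.27 and 5.34 TPM, was called higher too (1.68 ± 0.53, adjusted p = 0.0401). The part of these other cell types in the levels of the members was not tested.

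Of 14 genes known from mammary tumour cells 7 were tested. Between the dormant groups Epcam was called higher and Krt8 lower (-1.62 ± 0.35, adjusted p = 0.00541), and the count of higher calls became 0 without any one library other than dormant KO replicate 2. Gata3, a luminal transcription factor, was not called (-1.37 ± 0.56, adjusted p = 0.104). Against growing KO, 0 were called higher and 3 lower, namely Krt8 (-1.58 ± 0.35, adjusted p = 0.00761), Krt18 (-1.39 ± 0.25, adjusted p = 0.00203) and Vim (-1.11 ± 0.12, adjusted p = 8.98e-05), beside 9.48% of all genes. Their summed level was 610 to 736 TPM in dormant KO, 961 to 1312 in dormant WT, 1287 to 1408 in growing WT and 1495 to 1724 in growing KO. The intermediate filament genes Krt8, Krt18 and Vim were present in all 12 libraries, at no less than 52.1, 131 and 372 TPM. Epcam, Cdh1, Krt5, Krt14 and Esr1, epithelial or mammary markers, were each below 6 TPM in all 12 libraries, and Pgr was at 0.

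**Figure D3:**
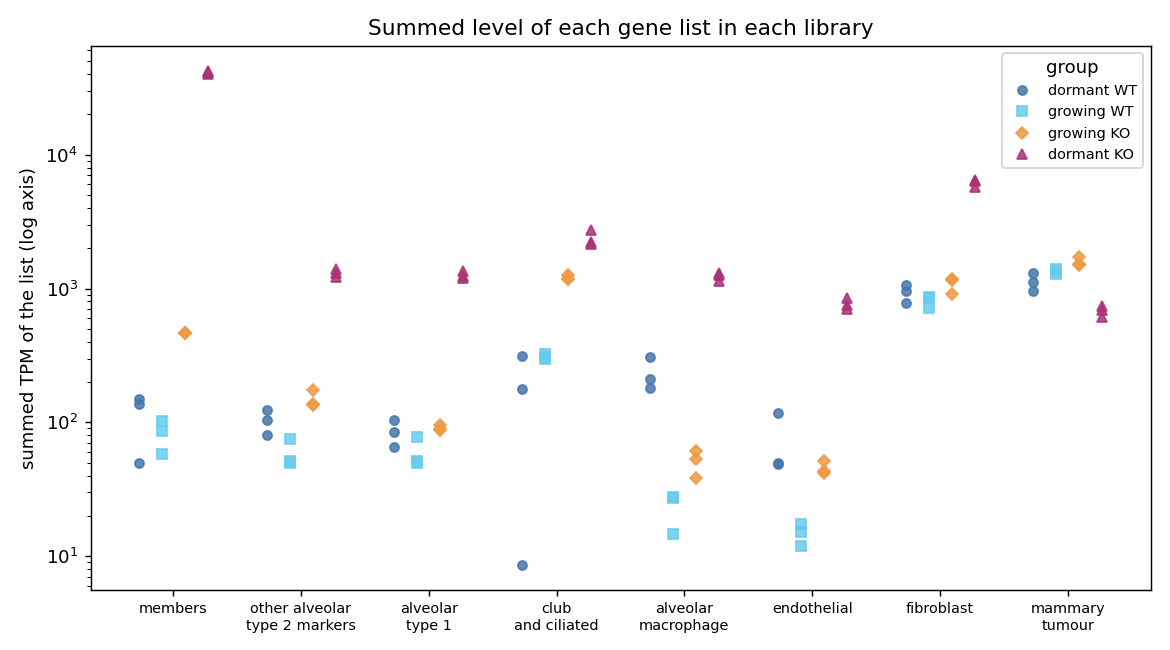
Summed TPM of the 10 members and of 7 marker lists in each of the 12 libraries on a log axis, 1 point per library with the colour and marker of its group. The dormant KO libraries are highest for the members (40082 to 42420 TPM) and for the 6 lists of lung cell types, and lowest for the mammary tumour list, while the growing KO libraries lie between dormant KO and the WT libraries for the members, the other alveolar type 2 markers and the club and ciliated list.

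The genes whose pattern was most like that of Sftpc were sought by the mean absolute difference between centred log2(TPM + 1) values over the 12 libraries, among 7651 tested genes with a mean of at least 10 TPM in some group. The nearest was Slurp1 (0.42), a secreted protein of the Ly6 family, followed by Cd200 (0.55), a membrane glycoprotein that engages an inhibitory receptor on myeloid cells. Efemp1 (0.67) and Igfbp7 (0.67), secreted matrix proteins, Igfbp5 (0.69), Aldh1a2 (0.69), Fgfbp1 (0.69) and Fxyd3 (0.73) followed. Slurp1 had 666, 742 and 799 TPM in dormant KO and 6.62, 5.79 and 5.42 in growing KO, and was listed at 0 in all dormant WT and in 2 growing WT libraries. Cd200 had 593, 640 and 487 TPM in dormant KO and 26.0, 7.16 and 6.19 in growing KO, and was listed at 0 in all 6 WT libraries. Dormant KO exceeded growing KO 124-fold for Slurp1, 88.9-fold for Fxyd3 and 43.7-fold for Cd200 by group means, beside 92.4-fold for Sftpc. Slurp1, Igfbp7, Aldh1a2 and Fxyd3 overlap annotated genes on the opposite strand (Them6, Polr2b and Gm34648, Gm48124, and Lgi4). Their values are uncertain to that extent.

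The likeness rests on the pseudocount, because Sftpc was at 41.2 TPM or more in every WT library, where these 8 genes were listed at 0 or near it. In a check chosen after the data were seen, a pseudocount of 0.1 left 0 of the 8 genes among the nearest 8 and put Slurp1 at rank 337 and Cd200 at rank 404. A pseudocount of 5 kept 3 of them and median-ratio scaling 7, with Slurp1 nearest in both. The ranks of Slurp1 and Cd200 leave the members out. Among the members themselves, over all 13002 tested genes with Sftpc itself at rank 1, Sftpa1 (rank 16), Sftpd (rank 23) and Sftpb (rank 70) were nearest to Sftpc. Napsa was at rank 283, Slc34a2 at 356, Lamp3 at 517, Lpcat1 at 2532, Etv5 at 2974 and Abca3 at 5336.

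**Figure D4:**
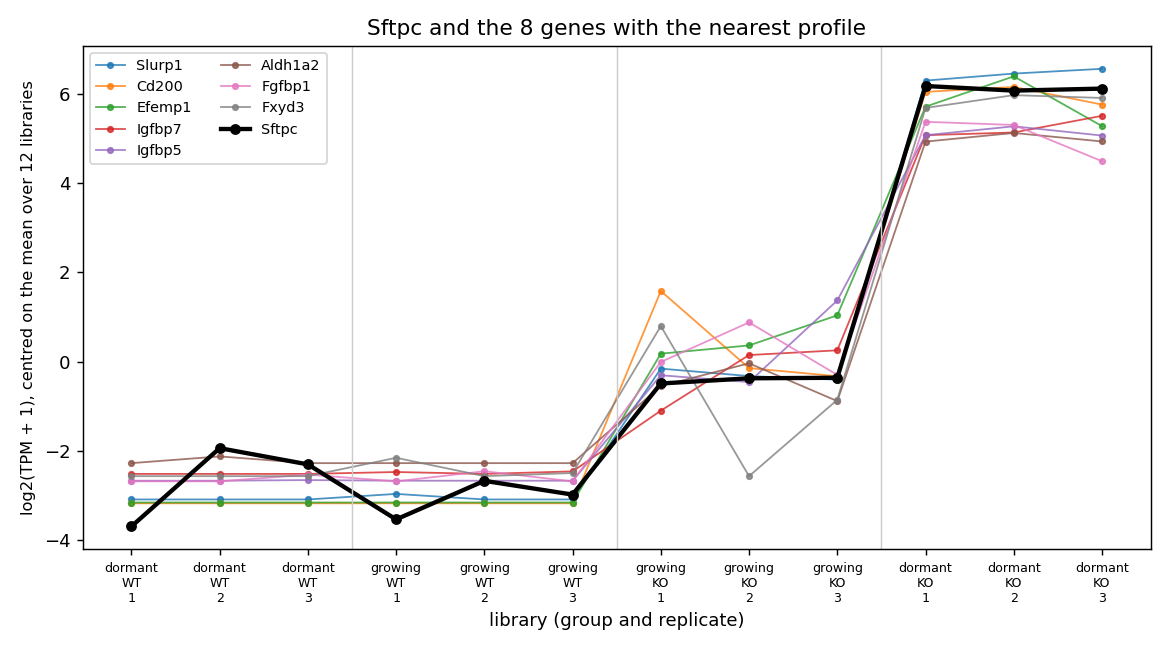
Profile of Sftpc (black) and of the 8 nearest genes over the 12 libraries, as log2(TPM + 1) centred on each gene's mean, with lines joining the values of one gene as a guide and no order among replicates. All 9 genes are highest in the dormant KO libraries, and among the WT libraries Sftpc varies from library to library while the other genes lie flat at or near 0 TPM.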

How the data were processed

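RNA was sequenced from 12 libraries, 3 in each of 4 groups taken from the sample labels. The authors sorted small aliquots of cells; the labels give a TruSeq mRNA kit and the methods the Smart-seq2 protocol. The submitters' processing notes list bcl2fastq 2.20, cutadapt 1.18, STAR 2.5.2b, RSEM 1.3.3 and DESeq2, with the build mm10. The deposited values are TPM estimated by the authors with RSEM, with no counts beside them. TPM keeps no depth, so the reads behind each value are unknown, no counting interval is given, and the precision is the spread of 3 libraries. RSEM shares reads between similar sequences by estimate. The table has 30 other per-sample columns, left out because they matched no labelled sample. Among these are columns named for dormant and growing WT libraries of batch 2.

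TPM was used as deposited and transformed to log2(TPM + 1), a scale that understates the change of low genes. Genes with at least 1 TPM in at least 3 libraries were tested (13002 of the 25916 above 0 in any library). Limma 3.58.1 in R 4.3.3 (eBayes with a trend) was fitted to all 12 libraries with 1 mean per group, and p-values were Benjamini-Hochberg adjusted over all tested genes. A gene was called at an adjusted p of at most 0.05 and a difference of at least 1 log2 unit, two-sided. The count model of the study, DESeq2, was not used because TPM are not counts. The scripts were tested on simulated data. The p-values measure the spread between libraries.

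Named genes were the 10 members, up to 4 genes per list with the highest mean TPM over the 12 libraries, Nkx2-1, Spp1, and the 8 genes most like Sftpc. Marco, Siglecf, Mrc1, Plet1, Aqp5, Bpifa1, Col1a1, Col3a1, Lum, Pdgfra, Pdgfrb, Gata6, Cebpa, Fgfr2, Fgfr3, Pecam1, Epcam, Cdh1, Krt5, Krt14, Esr1, Pgr, Foxj1, Dynlrb2, Ccdc153, Tmem212 and Rasgrf1 were named outside this rule, after their values were seen. The members, the 11 lists (155 genes, 5 of them in more than 1 list, no member among them) and the alternatives were chosen with earlier results of these data known, and the lists were written from general knowledge. As alternatives, the pseudocount was set to 0.1 or 5, the minimum was dropped or raised to 5 TPM, values were rescaled by median ratios (5729 genes) or quantile normalized, the compared groups were fitted alone, and array weights, a replicate block and the removal of each library were tried. Coordinates are from GENCODE M21 (GRCm38), matched by gene ID, with 1 member of 10 (Abca3) at a later ID version. Figures were drawn with matplotlib 3.10.9.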

Additional observations from a re-analysis of the deposited data

Results flagged for a closer look

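A test of the difference between hosts, the interaction term in limma, marked 7 members whose dormant minus growing difference was larger in KO than in WT hosts on the log2(TPM + 1) scale. The difference of differences was 6.11 for Sftpc, 5.77 for Sftpb, 7.93 for Sftpa1, 3.76 for Sftpd, 2.64 for Lamp3, 6.88 for Napsa and 3.67 for Slc34a2. In all 7 the difference comes with dormant KO libraries that lie above the 9 others. Sftpb, Lamp3 and Slc34a2 reached the minimum for testing only through dormant KO, so their values are a description. The count was 5 with the replicate block, where the calls of Sftpd and Lamp3 were lost, and 4 without any one dormant KO library. Host and library batch are the same split and cannot be told apart in this test.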

How the results depend on the processing

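Over 21 alternatives the 7 members called higher between the dormant groups became 5 to 8, and the 7 called within KO 5 to 7. Where they were tested, the difference between the dormant groups ran from 1.31 to 5.16 for Lamp3 and from 1.75 to 6.86 for Slc34a2. Within KO these differences ran from 1.27 to 4.39 and from 1.75 to 6.86. Sftpc kept its 3 calls and its interaction in every alternative. Over the same settings the count of all genes called moved from 2898 to 1418 to 3617 between the dormant groups, from 127 to 66 to 516 between the growing groups, from 2313 to 1551 to 3586 within KO, from 977 to 310 to 1918 within WT and from 1312 to 670 to 1937 for the interaction. Between the growing groups 1 member, Sftpc, was called with a pseudocount of 0.1, with no filter and with the replicate block, and 1 to 3 when a library was left out. Leaving out a library gave 0 to 1 members called lower between the dormant groups, 0 to 1 called higher and 0 to 1 called lower in dormant WT than growing WT, and 4 to 7 for the interaction. Within WT 1 member, Napsa, was called lower with a pseudocount of 0.1, a minimum of 5 TPM or the compared groups alone. Under median-ratio scaling the share of the members was 5.10% in dormant KO and 0.0380% in growing KO, and the dormant over growing KO ratio was 140 for Sftpc and 49.5 for Sftpd. That scaling moved the median of all genes between the dormant groups from 0.17 to 0.50, and quantile normalization to -0.14. The cause of these changes was not tested.

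Counts of called genes in the lists also moved. Between the dormant groups the genes called higher went from 2 to 0 to 5 for lipid synthesis, from 3 to 1 to 5 for surfactant handling, from 14 to 7 to 14 for the other type 2 markers, from 5 to 0 to 5 for the regulators, from 6 to 3 to 8 for alveolar macrophages, from 5 to 3 to 6 for epithelium and from 1 to 0 to 2 for mammary tumour, which moved in 17 of 21 alternatives.

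Signs turned only for differences that were not called. Over the fits without 1 library, Lpcat1 ran from -0.16 to 1.09 between the dormant groups, from -0.50 to 0.80 between the growing groups and from -0.39 to 1.13 for the interaction. Between the growing groups Sftpb ran from -0.25 to 1.07 and Etv5 from -0.44 to 0.64, within KO Etv5 ran from -0.71 to 0.14, within WT Lamp3 ran from -0.0047 to 0.12, and the interaction of Abca3 ran from -1.42 to 0.26. Within KO Etv5 was 0.22 with median-ratio scaling and 0.063 with quantile normalization, which also put Sftpb at 0.42 within WT. A pseudocount of 0.1 put the interaction at 0.45 for Abca3 and -0.017 for Lpcat1.

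Same-numbered libraries deviated from their group means with r of -0.0147 to 0.0206 in 18 pairs, and none exceeded 0.1. In KO hosts the same-numbered dormant and growing libraries gave 0.0206, 0.0192 and 0.0109, and differently numbered ones -0.0178 to -5e-04. Values this small cannot tell whether same-numbered libraries came from the same mouse, and the main fit treated all libraries as unpaired. With the replicate block the calls were lost for Sftpa1 between the growing groups (adjusted p = 0.0936) and for the interaction of Sftpd (0.104) and Lamp3 (0.0915), and the genes called fell from 977 to 415 within WT and from 1312 to 670 for the interaction.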
